A study of Mus musculus with 8 samples.

Results

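The comparison of T3-treated with untreated cerebellar cultures at 6 h, the earliest of 4 time points, is described here. It rests on 2 of the 8 arrays of the series, 1 per condition, so that every value at 6 h is a ratio of 1 array to 1 array and has no test. Control probe-sets of the array were left out, and a probe-set was a member when its signal reached 50 on at least 1 of the 2 arrays. Of 45037 probe-sets, 15500 (34.4%) were members, and they covered 9049 of the 18193 genes that have a probe-set of their own. On both arrays 14403 members reached a signal of 50, 613 did so only on the T3 array and 484 only on the untreated array. Just inside this limit lay Gabrb1 (36.1 with T3 and 50 without) and just outside it Poc5 (41.6 and 49.9). A value is a ratio of the T3 signal to the untreated signal, given on the log2 scale, where 1 is a doubling. A gene with several member probe-sets is given by its brightest one unless another is named.

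Both cultures came from wild-type mouse pups (the strain is not given in the sources used here), whose ages the labels give as postnatal days 4 to 7 and the study's methods as somewhat younger. Cerebella of several pups were pooled and dissociated, and the cells were kept in serum-free medium for 48 h to favour neurons over glia. One culture then received 0.1 µM T3 (triiodothyronine, the active thyroid hormone) for 6 h, and its control had the same change of medium without T3. The methods state that the T3-treated and untreated cultures of a time point were prepared in parallel from the same batch of cells. RNA was amplified before it was hybridized to Affymetrix Mouse Genome 430 2.0 arrays.

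Thyroid hormone acts mainly through nuclear receptors encoded by Thra and Thrb, which bind DNA as partners of retinoid X receptors. Without hormone they recruit corepressors, and upon T3 binding they exchange them for coactivators, so that target genes can respond without new protein synthesis. In the developing cerebellum the hormone is needed for the timely inward migration of granule cells, for the growth of Purkinje cell dendrites and for myelination. A treatment of a few hours is commonly used to look for transcripts that respond early.

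Transcripts of the cells named in the labels were present. Granule lineage markers were members in 13 of 14 cases for precursors and in 9 of 13 for differentiated neurons, with Zic1, a zinc finger factor of the granule lineage, at 3144.4 with T3 and 3312.5 without. Gabra6, a receptor subunit of mature granule neurons, was at 3.4 and 7.7, below the limit. Markers of other cells were found as well, and Ttr, the transthyretin of the choroid plexus, had signals of 3836.8 and 3880.6. In such mixed cultures fewer cells of a type and less RNA per cell cannot be told apart. The ratio of the 3′ to the 5′ signal, a measure of RNA integrity, was 1.85 with T3 and 1.92 without for Actb, and 2.54 and 2.83 for Gapdh. All 9 probe-sets of the spiked bacterial poly-A RNAs were higher on the T3 array, by 1.27- to 1.86-fold, although the arrays were scaled to the same mean. The 24 h pair stood apart in the series, with 3.87% of its 16631 probe-sets at least 2-fold higher with T3 and 7.29% at least 2-fold lower, and its poly-A spikes differed by a median of 3.16-fold. The fits and the shares of repeated directions are therefore also given without it.

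At 6 h few probe-sets differed between the arrays. Of the 15500 members, 53 were at least 2-fold higher with T3 (0.342%) and 41 at least 2-fold lower (0.265%), and these 94 probe-sets carry the names of 79 genes. In 11761 members (75.9%) the 2 arrays differed by less than 1.2-fold, the median ratio was -0.0017, and the SD of the ratios was 0.27. The share beyond 2-fold decreased with the signal. It was 1.12% of 4194 members whose higher signal lay between 50 and 100, 0.639% of 3915 between 100 and 200, 0.321% of 4054 between 200 and 500, 0.284% of 1763 between 500 and 1000, and 0.254% of 1574 from 1000 upwards. The 4 probe-sets beyond 2-fold in that brightest class were all higher with T3, and 3 of them belong to Klf9 and 1 to Malat1. Of the 53 higher probe-sets 34 reached a signal of 50 only with T3, and of the 41 lower ones 25 only without, so that most of these ratios have 1 dim side. With 32 added to every signal, which damps such ratios, 15 probe-sets were higher and 8 lower. Just beyond 2-fold lay Malat1 (1073.4 and 534, ratio 1.01) and Kcnj13 (87.8 and 43.6, ratio 1.01), and just short of it Hemk1 (148.3 and 74.2) and Il33 (52.7 and 105.3).

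**Figure D1:**
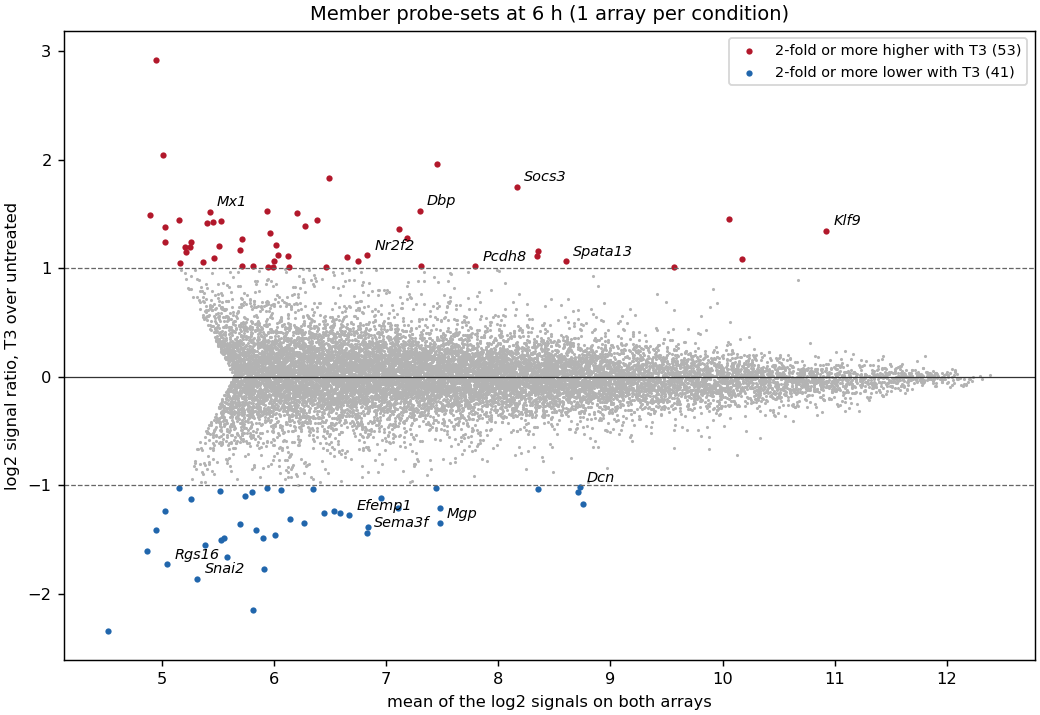
Log2 ratio of the T3 to the untreated signal at 6 h (vertical axis) against the mean log2 signal of both arrays (horizontal axis) for all 15500 member probe-sets, one point each; dashed lines mark 2-fold. Red and blue points are the 53 higher and 41 lower probe-sets, most of them at low signal, while Klf9 stands at 1.35 at high signal.

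The array has several probe-sets for many genes, and they give a check within the same RNA, though not a replicate. Whether the probe-sets of a gene share sequence was not examined. Among the 40 genes with a probe-set at least 2-fold higher, 25 had other members, and in 10 of these another probe-set was beyond 1.5-fold in the same direction. They are Klf9, Socs3, Dbp, Spata13, Pcdh8, Fndc5, Mgll, Cavin2, Anp32a and Fam193a, and in all but Anp32a and Fam193a every other member probe-set was beyond 1.5-fold. Among the 39 genes with a probe-set at least 2-fold lower, 22 had other members, and in 3 of these (Nudt21, Rimklb and Scai) another one was beyond 1.5-fold. In none of the 22 were all the others. The median ratio of the remaining probe-sets, taken over genes, was 0.37 for the higher and -0.05 for the lower genes. Several of the most extreme ratios thus stood alone. Polr3k, a subunit of RNA polymerase III, had a ratio of 1.96 in one probe-set and 0.05 and 0.39 in the others, and Becn1, an autophagy gene, had -2.35 in one (10.2 and 51.9) and -0.07 and 0.09 in the others. Probe-sets whose names end in _x_at, which can match more than 1 transcript, made up 19.1% of those beyond 2-fold and 7.84% of the members. The brightest member probe-sets of Socs3, Pcdh8, Sema3f, Snai2, Macroh2a3, Fmod, Ptpn6 and Lce1i, used below, are of this type.

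**Figure D2:**
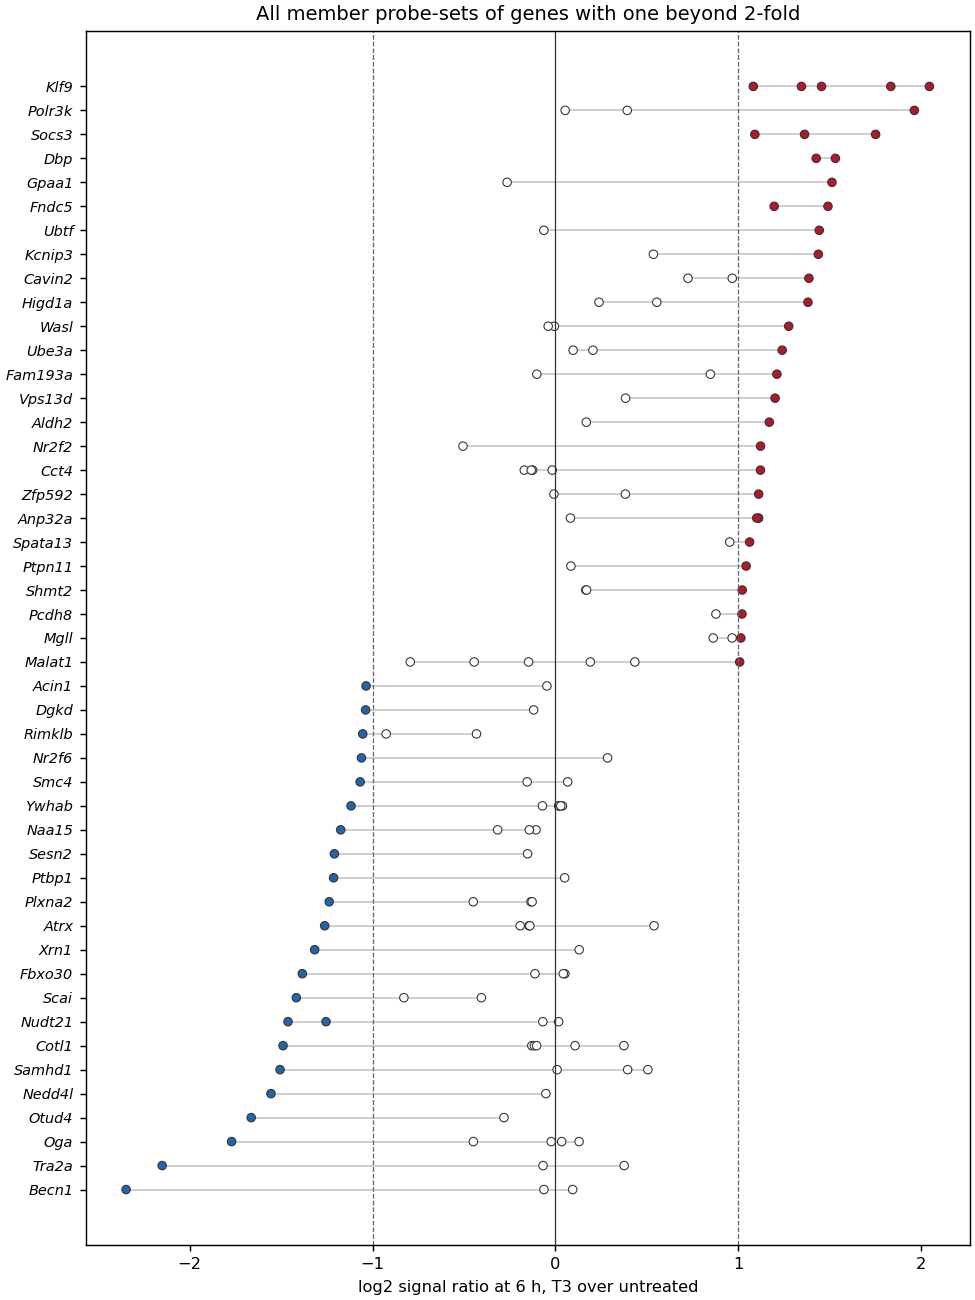
Log2 ratio at 6 h (horizontal axis) of every member probe-set of the 47 genes that have several and at least 1 beyond 2-fold; each row is a gene, each point a probe-set, filled when beyond 2-fold (red higher, blue lower with T3). All 5 points of Klf9, all 3 of Socs3 and both of Dbp lie beyond 2-fold, whereas most genes have 1 filled point and the rest near 0.

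Klf9 encodes a Krüppel-like zinc finger transcription factor and is a well known T3 target in brain. Its brightest probe-set had a signal of 3099.5 with T3 and 1220.0 without, a 2.54-fold difference, and the T3 array was the higher one in all 5 member probe-sets, with ratios of 1.08 to 2.04. Of the Krüppel-like factors 12 of 17 were members, with a median ratio of -0.12, against 0.00 over all member genes. Besides Klf9 none was beyond 2-fold, the nearest being Klf5, an epithelial member of the family, at 61.3 and 37.9 (ratio 0.69).

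Dbp encodes a transcription factor of the PAR bZIP family, whose transcript follows the circadian clock. It had 267.8 with T3 and 92.7 without, a 2.89-fold difference, and its second probe-set 72.0 and 26.8, with ratios of 1.53 and 1.43. The other genes of the clock differed less. Of 23 clock and PAR bZIP genes 15 were members, with a median ratio of 0.02, and Dbp was the only one beyond 2-fold, the other 14 lying between -0.40 and 0.30. The ends of that range were Per1, a repressor of the clock, at 69.3 and 91.4 (ratio -0.40), and Csnk1e, a kinase of the period proteins, at 537.1 and 437.2 (ratio 0.30), with Bhlhe40, another repressor, at 67.8 and 56 (ratio 0.28). Tef, which encodes a relative of Dbp, had 218.2 and 241.0 (ratio -0.14), Clock 181.9 and 181.1 (ratio 0.01), Arntl, the partner of Clock, 75 and 74 (ratio 0.02), and Per2, a repressor of both, 73.8 and 81.6 (ratio -0.14). The repressor Nr1d2 was at 649.9 and 554.7 (ratio 0.23).

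Socs3 encodes a suppressor of cytokine signalling that binds receptors and JAK kinases, and its gene is itself induced by STAT3. It had the largest difference at 6 h among genes when 32 was added to the signals, with 525.9 with T3 and 156.3 without, which is 3.36-fold. Its other probe-sets had 222.1 and 86.4 (ratio 1.36) and 64.3 and 30.2 (ratio 1.09). Other genes of the pathway lay close together on both arrays. Of 25 cytokine and JAK-STAT genes 17 were members, 1 was beyond 2-fold and the median ratio was -0.01. Stat3 had 180.3 and 169.4 (ratio 0.09), Il6st, the shared receptor of the interleukin-6 family, 131.9 and 154.7 (ratio -0.23), Cish, another suppressor, 103.2 and 88.8 (ratio 0.22), and Socs2 109.6 and 78.9 (ratio 0.47). Il6 and Lif, ligands of that receptor, were below the limit.

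The remaining higher genes with agreeing probe-sets belong to different classes. Spata13, an exchange factor for small GTPases of the cell skeleton, had 560.5 with T3 and 268.5 without (2.09-fold), and its second probe-set 135.9 and 70.2. Pcdh8, a protocadherin of neurons, had 316.1 and 155.9 (2.03-fold), and 134.3 and 73.1 in its second. Both genes therefore had ratios close to 1 in each probe-set, from 0.88 to 1.06. Mgll, the lipase that degrades the endocannabinoid 2-arachidonoylglycerol, had 226.4 and 115.9 in its brightest probe-set, and ratios of 0.86 to 1.01 in all 3 member probe-sets. Cavin2, a component of caveolae, had 296.1 and 151.5, and ratios of 0.72 to 1.39. Fndc5, the precursor of irisin, was dimmer, with 55.9 and 24.4 in one probe-set and 50 and 17.8 in the other. Anp32a, which encodes a nuclear phosphoprotein, was not uniform, with ratios of 1.11 and 1.10 in 2 probe-sets and 0.08 in the brightest (836.8 and 790.6). Fam193a was likewise split, with 1.21 and 0.85 against -0.10.

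To let the sequences before these genes be seen, the 250 bases upstream of the annotated start are shown for Klf9, Dbp, Socs3 and Spata13, from RefSeq on GRCm38.p6, 5′ to 3′ along the gene. They were searched on both strands for the half-site AGGTCA of T3 receptors, for 2 such half-sites in the same direction with 4 bases between, for the E-box CACGTG bound by clock factors, and for the STAT motif TTCNNNGAA, and matches are in capitals. Klf9 lies on chromosome 19 (chr19:23140976-23141225, plus strand), Dbp on chromosome 7 (chr7:45704997-45705246, plus strand), Socs3 on chromosome 11 (chr11:117969367-117969616, minus strand), and the second of 2 starts of Spata13 on chromosome 14 (chr14:60732654-60732903, plus strand).
Klf9: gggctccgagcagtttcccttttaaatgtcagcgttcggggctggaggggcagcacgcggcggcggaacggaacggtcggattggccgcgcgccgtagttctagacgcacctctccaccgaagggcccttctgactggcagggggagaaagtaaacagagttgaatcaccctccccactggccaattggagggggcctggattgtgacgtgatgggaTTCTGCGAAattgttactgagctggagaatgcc
Dbp: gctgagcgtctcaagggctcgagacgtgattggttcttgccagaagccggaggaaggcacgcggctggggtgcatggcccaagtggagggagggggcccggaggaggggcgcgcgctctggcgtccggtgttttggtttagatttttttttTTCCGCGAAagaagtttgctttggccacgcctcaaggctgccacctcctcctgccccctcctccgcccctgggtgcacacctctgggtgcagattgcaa
Socs3: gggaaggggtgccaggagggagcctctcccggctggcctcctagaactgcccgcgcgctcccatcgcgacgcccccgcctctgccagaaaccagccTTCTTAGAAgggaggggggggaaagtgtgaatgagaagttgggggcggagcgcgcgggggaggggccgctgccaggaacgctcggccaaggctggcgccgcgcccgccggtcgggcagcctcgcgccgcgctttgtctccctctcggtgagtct
Spata13: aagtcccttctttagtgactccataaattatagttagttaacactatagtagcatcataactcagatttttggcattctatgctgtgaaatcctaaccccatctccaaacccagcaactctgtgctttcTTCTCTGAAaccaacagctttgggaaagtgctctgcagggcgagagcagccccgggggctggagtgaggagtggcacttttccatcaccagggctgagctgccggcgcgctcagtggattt
All the capitals mark TTCNNNGAA, which begins 33 bases before the start in Klf9, 99 in Dbp, 154 in Socs3 and 121 in Spata13. It was found in 4 of the 10 higher genes with agreeing probe-sets, which are the 4 shown, and in 8.13% of the 27025 genes with a promoter of this length. The 10 genes were chosen by their values at 6 h, and the motifs with earlier results known. Whether the shares differ was not tested. Before the first start of Spata13, which is not shown, none of the motifs was found. The half-site was found in none of the 10 and in 15.8% of all, the repeat in none and in 4 genes of all, and the E-box in Mgll and in 6.86% of all. These matches describe letters in short windows, and a missing match says only that the letters are not in the window, since sites farther from the start were not searched. Binding was not measured here. The study purified a tagged T3 receptor with its chromatin from a cerebellar cell line, and reports it bound upstream of Klf9 and Dbp. Those sites lie outside the windows shown.

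Most of a list of 16 genes were picked by the study from these arrays, while Ccnd2 and Hr were included as T3 targets known before, so the list's values at 6 h are no independent evidence of a direction. The study also measured its candidates by quantitative RT-PCR, in the same cultures and in a second, independent set. By that method it reports Dbp, Klf9 and Spata13 at least 2-fold higher at 6 h. Of these 16 genes 13 were members, with a median ratio of 0.20, 3 at least 2-fold higher (Dbp, Klf9 and Spata13) and none at least 2-fold lower. Pfkfb3, which makes the activator of glycolytic phosphofructokinase, had 109.8 with T3 and 61.4 without (1.79-fold), the largest of the others. The array fold that the study prints for it at 6 h is somewhat larger. Gbp3, an interferon-inducible GTPase, had 319.1 and 276.0 (ratio 0.21), and Snap25, a component of the machinery for vesicle fusion, 725.8 and 631.9 (ratio 0.20). For Zbtb20, a zinc finger repressor, all 8 member probe-sets were higher with T3, by ratios of 0.03 to 0.50, and the brightest had 395.1 and 313.0.

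Others of the 16 were lower or nearly equal at 6 h. Tgm2, a transglutaminase, had 186.5 with T3 and 279.9 without, and its 4 member probe-sets ratios of -0.59 to -0.32. Plxna2, a semaphorin receptor, had 78.0 and 106.5 (ratio -0.45), and its 4 member probe-sets ratios of -1.24 to -0.13. The study instead prints a rise with T3 for Plxna2 on the arrays at 6 h, and nearly equal levels by quantitative RT-PCR. Igsf3, an immunoglobulin superfamily gene, had 140.6 and 190.9 (ratio -0.44), with -0.82 and 0.19 in its other member probe-sets, so that they did not share a direction. Vnn1, a pantetheinase, was at 69.9 and 75.6 (ratio -0.11) and Anxa8, an annexin, at 63.0 and 61.6 (ratio 0.03). Cdh1, the epithelial cadherin, was below the limit on both arrays (30.8 and 49.1). Hr, a corepressor that is a classical T3 target, was far below it in both probe-sets (15.3 and 12.1, and 20.8 and 8.6). In the second the T3 array was the higher one in the later pairs too, at 21.6 and 1.3, 24.2 and 6.1, and 20 and 2.1, all below the limit. Ccnd2, a cyclin of granule cell precursors, gave opposite values by probe-set. The brightest had 2055.0 and 2269.1 (ratio -0.14), while others had 255.0 and 138.0 (ratio 0.89) and 915.8 and 567.1 (ratio 0.69). Of the 6 member probe-sets of Ccnd2, those 2 were also higher with T3 in the 3 later pairs, by 0.18 to 1.27.

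Of 20 T3 targets described in other work 8 were members, with a median ratio of -0.17, and 1 of them, Klf9, was beyond 2-fold. Beyond 1.2-fold 2 of the 8 were higher and 3 lower with T3, against 11.0% and 10.2% of all 9049 member genes. The sign of the median depends on the limit, as it was 0.16 when targets below it were included. One of these is Syt12, a synaptotagmin family gene, with 42.1 and 4.4 at 6 h and ratios of 1.47, 1.79 and 0.49 in the later pairs. Mbp, the myelin basic protein gene, had 502.1 and 329.3 (ratio 0.61), Reln, the guidance protein of granule cells, 2390.5 and 2724.4 (ratio -0.19), and Pcp2 of Purkinje cells 146.3 and 206.3 (ratio -0.50). Of 20 T3 receptors, transporters, deiodinases and cofactors 9 were members, none beyond 2-fold, with ratios of -0.35 to 0.13. Thra, the receptor gene of most brain cells, had 833.7 and 965.7 (ratio -0.21), whereas Thrb, the other receptor gene, had 3.7 and 3.5, below the limit. Dio2, which activates thyroid hormone, had 25 and 16.7.

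Several of the lower genes encode extracellular matrix proteins, which were put together after their values were seen and not from a list. Mgp, the matrix Gla protein, had 111.7 with T3 and 285.1 without, 2.55-fold lower. Dcn, the proteoglycan decorin, had 297.6 and 603.2 (2.03-fold lower), and Lum, its relative lumican, 36.6 and 78.4 (2.14-fold lower). Efemp1, a fibulin of the matrix, had 65.4 and 158.6 (2.43-fold lower). Col3a1, a fibrillar collagen, had 264.8 and 486.2 (ratio -0.88), and Col1a2, another, 165.5 and 249.4 (ratio -0.59). Col1a2 was lower in its second probe-set as well (45.3 and 62), and each of the others has 1 member probe-set. Fmod, which encodes fibromodulin, a relative of decorin, went the other way in its probe-set beyond 2-fold (69.3 and 25.9, ratio 1.42). Snai2, a transcription factor of mesenchymal cells, had 20.9 and 76.0, so that only the untreated array reached the limit. Its other probe-set, below the limit on both arrays, had 11.6 and 9.3.

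Dcn, Lum, Col3a1 and Col1a2 are also markers of meningeal fibroblasts. Of 12 markers of meningeal fibroblasts and mural cells 8 were members, 7 of them lower with T3 and 2 beyond 2-fold, and the median ratio was -0.44. Over all 9049 member genes 51.0% were below 0 and 48.9% above it, and 11.0% were beyond 1.2-fold higher and 10.2% lower. By the brightest probe-set of each gene, 22 of the 9049 were at least 2-fold higher and 18 at least 2-fold lower. Of the 8 markers 5 were beyond 1.2-fold lower (62.5%) and 1 higher. Their summed signal was 1874.4 with T3 and 2377.2 without. Igf2 was the exception, at 647.1 and 454.4 (ratio 0.51), and the mural genes Acta2 and Rgs5 had ratios of -0.07 and -0.17. With the members that reached 50 on both arrays the median was -0.28. The part of the number of such cells in the values of the matrix genes was not tested. Untreated signals of these genes were far higher at later times, for Dcn 603.2 at 6 h against 1218.9 to 2849.2 at 16 to 48 h, and for Mgp 285.1 against 1241.5 to 2190.5.

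Sema3f, a secreted guidance cue for axons, had 68.9 with T3 and 186.9 without (2.71-fold lower). Rgs16, a regulator of G protein signalling, had 18.2 and 60.3 (3.31-fold lower), and Aif1l, an actin-binding protein, 48.2 and 122.5. Of these 3 only Sema3f reached the limit on both arrays. Their other probe-sets were all below the limit at 6 h. Those of Sema3f (12 and 5, and 13.9 and 2.2) and of Rgs16 (17.2 and 8, and 2.3 and 1.2) were higher with T3. For Aif1l they were split, with 22.5 and 14 in one and 15.9 and 27.7 in the other. Ddit4, an inhibitor of the mTOR pathway, was lower at higher signals, with 374.2 and 673.1 (ratio -0.85), as was Tom1l2, an adaptor of endosomes, with 160.2 and 303.2 (ratio -0.92). Gprin3, a gene named for binding G proteins, had 121.9 and 247.8 (ratio -1.02). Kdm4a, a histone demethylase, had 60.4 and 143.0, Macroh2a3 35.8 and 100.3, and H2-Ea, a class II histocompatibility gene, 16.7 and 50.9. For Xrn1, an RNA exonuclease, one probe-set had 44.7 and 111.3 and the other 60.4 and 55.2, so that its direction depends on the probe-set. Nudt21, a factor of messenger RNA cleavage, had ratios of -1.46 and -1.25 in 2 dim probe-sets and -0.07 and 0.02 in 2 brighter ones (1476.2 and 1548.4 in the brightest).

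The further genes among the largest 15 differences upwards were mostly represented by a single member probe-set. Ptpn6, a phosphatase of blood cells, had 99.1 with T3 and 39.6 without, and Lce1i, a gene of the skin barrier, 104.3 and 36.2. Both probe-sets are of type _x_at. The other probe-set of Ptpn6, below the limit, had 35.9 and 24.2. Dhrs3, which reduces retinal, had 156.1 and 74.5 (2.10-fold), Fxyd1, a regulator of the sodium pump, 226.5 and 111.8 (2.03-fold), and Vat1l 264.1 and 136.2 (1.94-fold). Folr1, a folate receptor, had 359.8 and 183.2 (1.96-fold). Genes with a second member probe-set were less uniform. Nr2f2, an orphan nuclear receptor, had 168.2 and 77.3 in the brighter (2.18-fold) and 63.4 and 90.0 in the dimmer (ratio -0.51), and Hyou1, a chaperone of the endoplasmic reticulum, 634.3 and 333.4 against 56.1 and 62.3 (ratios 0.93 and -0.15). Which of the probe-sets gives the level of these transcripts was not tested.

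Markers of some other cell types also differed between the 2 cultures. Of 14 choroid plexus markers 9 were members, 7 higher with T3 and 1 beyond 2-fold, with a median ratio of 0.64, and 5 (55.6%) were beyond 1.2-fold higher and none lower. Kcnj13, a potassium channel of this epithelium, had 87.8 with T3 and 43.6 without, Igfbp2, a carrier of insulin-like growth factors, 886.3 and 522.8 (ratio 0.76), and Aqp1, a water channel, 72.8 and 46.3 (ratio 0.65). Ttr, the brightest marker, had a ratio of -0.02 and Otx2, a transcription factor of this tissue, -0.16, and the summed signals were 5880.4 and 5327.9. With members at 50 or more on both arrays the median was 0.25. Folr1 is among these markers too, and the part of choroid plexus cells in its value was not tested.

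Of 14 microglia markers 9 were members and all 9 were higher with T3, none beyond 2-fold, with ratios of 0.14 to 0.73, a median of 0.34 and summed signals of 1884.4 and 1497.8. Beyond 1.2-fold were 8 of them (88.9%, against 11.0% of all member genes). Csf1r, the growth factor receptor of these cells, had 362.0 and 295.5, and Cx3cr1, a chemokine receptor, 95.9 and 57.7, whereas Aif1, Itgam, Trem2 and P2ry12 stayed below the limit. Of 15 oligodendrocyte markers 5 were members, with a median of 0.37, and Mog, Mag and Sox10 were below the limit. Of 12 Purkinje cell markers 6 were members and all 6 were lower with T3, with ratios of -0.64 to -0.18 and a median of -0.47, and 5 (83.3%) were beyond 1.2-fold lower, against 10.2% of all member genes. Calb1, a calcium buffer, had 170.9 and 266.8, and Car8, which is related to carbonic anhydrases, 388.8 and 538.6. Granule cell precursors (median -0.10), differentiated granule neurons (-0.07) and astrocytes with Bergmann glia (0.04) lay nearer to 0, and no gene of red blood cells was a member.

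**Figure D3:**
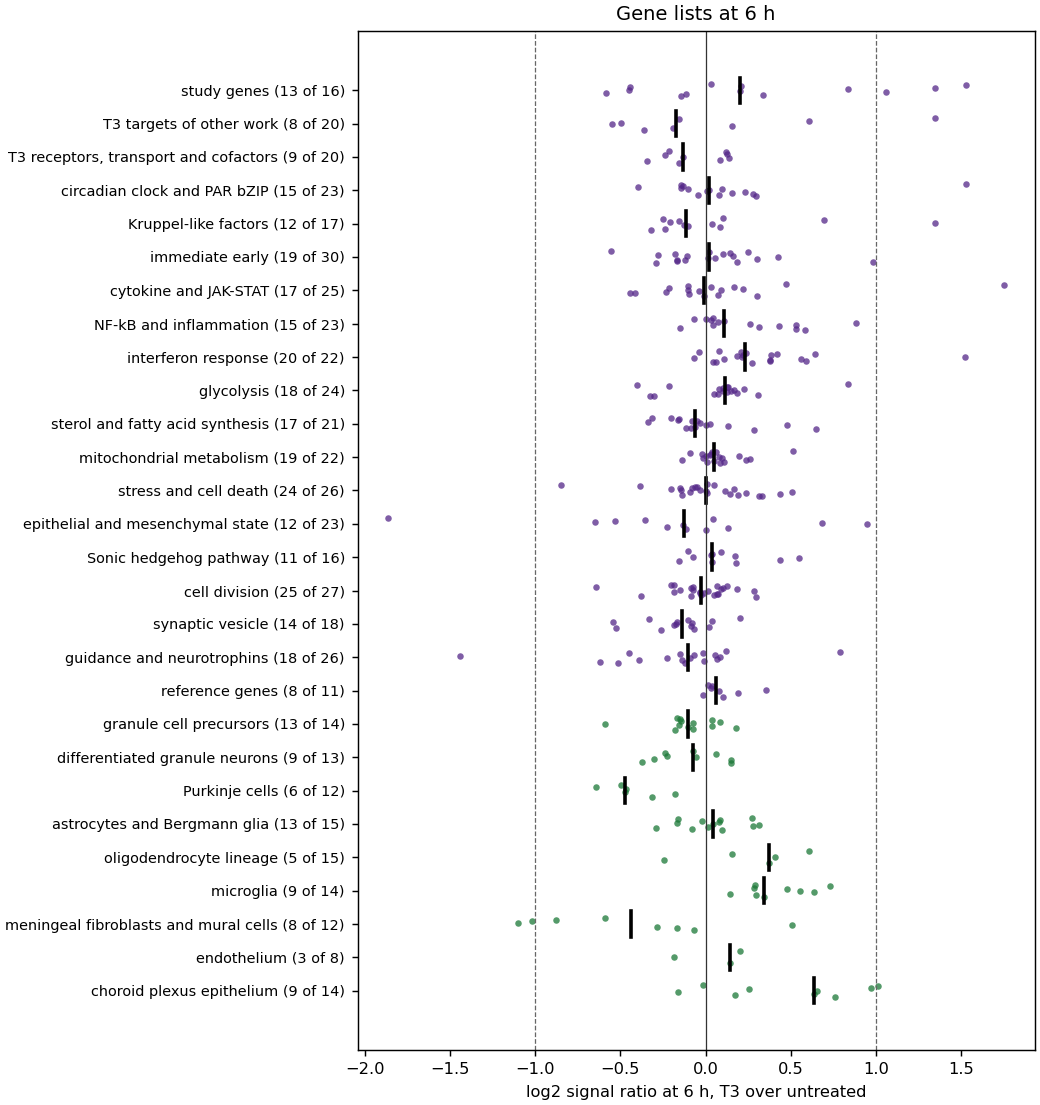
Log2 ratio at 6 h (horizontal axis) of the member genes of 28 gene lists that have at least 3 such genes; each point is a gene, purple for pathways and green for cell types, black bars are medians, and the numbers after each name give members of listed genes. Medians run from -0.47 (Purkinje cells) to 0.64 (choroid plexus epithelium), and single points far from their list are Socs3, Klf9, Dbp, Mx1, Sema3f and Snai2.

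In the interferon list 20 of 22 genes were members, 18 of them higher with T3, with a median of 0.23. Beyond 1.2-fold 9 (45%) were higher and none lower, against 11.0% and 10.2% of all member genes. Mx1, an antiviral GTPase, was the single one beyond 2-fold, at 72.9 and 25.4, and Ifit2, an antiviral gene too, had 233.8 and 149.6 (ratio 0.64). Of 23 NF-kB and inflammation genes 15 were members, 13 above 0, with a median of 0.11, or 0.26 with the mean of each gene's member probe-sets, and 6 (40%) were beyond 1.2-fold higher and none lower. Birc3, an inhibitor of cell death, had 78.5 and 42.5 (ratio 0.89), and the chemokine gene Ccl2 192.7 and 133.2 (ratio 0.53). Microglia markers, whose values are given above, also code for immune cells, and their part in these ratios was not tested.

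Early response genes did not move as a class. Of 30 immediate early genes 19 were members, none beyond 2-fold, with a median of 0.02. Fos had 775.1 and 1139.8 (ratio -0.56), Jun 426.7 and 420.1 (ratio 0.02), Egr1 315.4 and 294.3 (ratio 0.10), and Ccn1, a matrix signalling protein, 142.6 and 72.2 (ratio 0.98). Of 26 stress and cell death genes 24 were members, with a median of 0.00, and the lowest was Ddit4. Atf4 (2156.5 and 2085.3) and Hspa5 (3180.6 and 3255.1), main genes of the integrated stress response and of the unfolded protein response, had ratios of 0.05 and -0.03.

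Proliferation genes were nearly equal on both arrays, with 25 of 27 cell division genes members, none beyond 2-fold and a median of -0.03. Mki67 had 1837.3 and 2115.2 and Pcna 1959.3 and 2001.7, with ratios of -0.20 and -0.03. The Sonic hedgehog pathway, the main mitogenic pathway of granule cell precursors, had 11 of 16 genes members and a median of 0.04, and its receptor gene Ptch1 had 978.7 and 1051.8. Of 18 synaptic vesicle genes 14 were members, with a median of -0.14, and of 26 guidance and neurotrophin genes 18, with a median of -0.11, where Sema3f was the only gene beyond 2-fold. Glycolysis (18 of 24 members, median 0.11), mitochondrial metabolism (19 of 22, 0.05) and the synthesis of sterols and fatty acids (17 of 21, -0.06) had no gene beyond 2-fold. Of 23 genes of the epithelial and mesenchymal state 12 were members, with a median of -0.12. Besides Snai2 they included the keratin genes Krt18 (265.4 and 137.9, ratio 0.94) and Krt8 (239.0 and 148.9, ratio 0.68), while Vim, a filament gene of mesenchymal cells and glia, had 2339.4 and 2567.0. Reference genes (8 of 11 members) had a median of 0.06, with Actb at 3419.4 and 3382.3 and Hprt at 828.4 and 806.3.

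The later pairs, each with an untreated culture of its own, show which of these differences were seen again. They share the treatment but not the time, and 1 array per condition was used there too. At 16 h 0.404% of 15832 probe-sets were at least 2-fold higher and 0.423% at least 2-fold lower, and at 48 h 0.529% and 0.303% of 15494. Of the 53 probe-sets higher at 6 h, 5 were on the list of 64 higher at 16 h (9.43% and 7.81% of the lists), 12 on that of 643 at 24 h (22.6% and 1.87%) and 3 on that of 82 at 48 h (5.66% and 3.66%). Of the 41 lower probe-sets, 6 were on the list of 67 lower at 16 h (14.6% and 8.96%), 1 on that of 1212 at 24 h (2.44% and 0.0825%) and none of 47 at 48 h. Of the 53, 19 (35.8%) were above 0 in all 3 later pairs as well, against 16.4% of all members above 0 at 6 h, and of the 41, 6 (14.6%) were below 0 in all, against 14.2%. Without the 24 h pair these were 24 of 53 (45.3%) against 28.4%, and 14 of 41 (34.1%) against 28.0%. Probe-sets of the same gene were counted separately, so these are not shares of genes. All 5 of Klf9, all 3 of Socs3 and both of Dbp are among the 19 and the 24. Over all members the ratios at 6 h correlated with those at 16 h at 0.17, at 24 h at 0.15 and at 48 h at -0.03 (Pearson, across 15500 probe-sets, which are not independent replicates).

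Among the named genes, Klf9 was higher with T3 in each later pair, with ratios of 0.86, 1.34 and 0.60 at 16, 24 and 48 h, and so was Dbp, with 1.45, 1.39 and 0.97. Pcdh8 (1.30, 0.71 and 0.83), Spata13 (0.75, 1.15 and 0.41), Socs3 (0.77, 0.54 and 0.48) and Folr1 (0.50, 0.51 and 0.33) followed the same direction, and Kcnj13 had 0.95, 2.23 and 1.21. For Socs3 and Spata13 each later ratio except that of Spata13 at 24 h was smaller than the one at 6 h. Others were not repeated. Dhrs3 had -0.21, -0.05 and -0.21, Nr2f2 -0.30, -0.08 and -0.43, and Fxyd1 -0.20, -0.01 and 0.11. Their untreated signals at 24 h lay nearer to those at 6 h than those at 16 and 48 h did. For Dhrs3 they were 74.5, 497.5, 120.3 and 683 at 6, 16, 24 and 48 h, and for Fxyd1 111.8, 679.4, 177 and 604.1. For Nr2f2 they were 77.3, 280.1, 157.3 and 317.8. The part of such differences between the cultures in what was repeated was not tested. The matrix genes Mgp (-0.18, 0.83 and 0.13), Dcn (-0.27, 0.38 and -0.17), Efemp1 (-0.24, 0.46 and -0.02) and Col3a1 (-0.20, 0.61 and 0.03) were near 0 at 16 and 48 h and higher with T3 at 24 h. Sema3f was lower again at 16 h (-1.38), but not at 24 and 48 h (0.64 and -0.13). For Purkinje cell markers the medians at 16, 24 and 48 h were 0.09, -1.27 and 0.23. Those of meningeal and mural markers were -0.17, 0.51 and 0.01. Choroid plexus markers had medians of 0.23, 0.38 and 0.20, microglia markers of 0.27, -0.08 and 0.34, and oligodendrocyte markers of 0.16, -2.05 and -0.01.

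**Figure D4:**
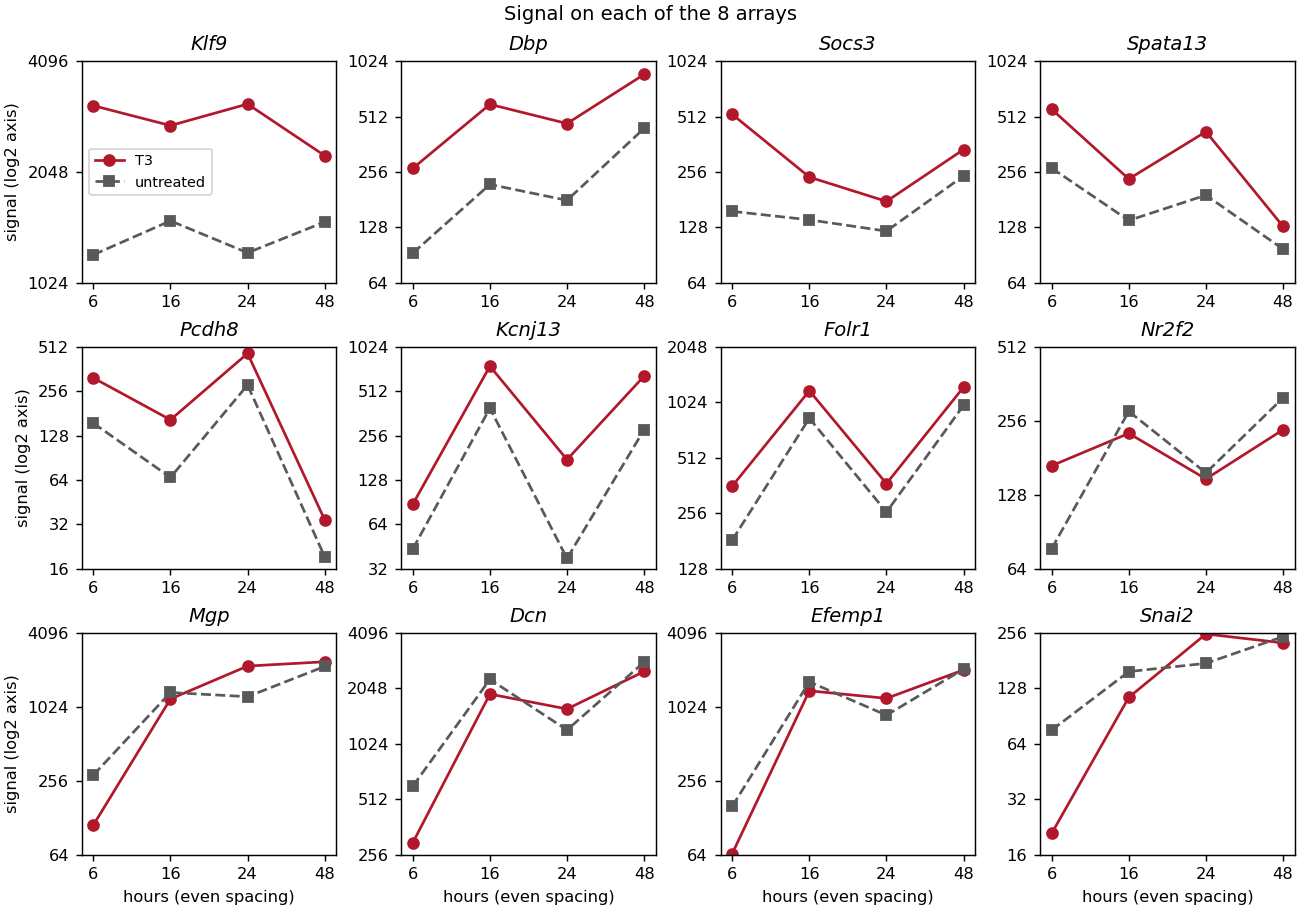
Signal (vertical axes, log2 scale) of 12 genes on each of the 8 arrays at 6, 16, 24 and 48 h (horizontal axes, evenly spaced); red circles are T3-treated and grey squares untreated cultures, each point is 1 array, and lines only join arrays of a treatment. Klf9, Dbp, Socs3, Spata13, Pcdh8, Kcnj13 and Folr1 are higher with T3 at all 4 times, whereas the differences of Mgp, Dcn, Efemp1 and Snai2 at 6 h are not seen at 48 h.

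A test was possible for the later pairs, where the 3 time points served as replicates of the T3 effect, fitted with limma on 18451 probe-sets with time as a block. No probe-set passed an adjusted p of 0.05 in either direction. The smallest adjusted p was 0.912, and 671 probe-sets had an unadjusted p under 0.05. On simulated data of this design 7 of 100 changes of log2 1 and 54 of 100 of log2 2 were recovered, so that the fit can miss most changes of 2-fold. Among the 53 probe-sets higher at 6 h, 13 (18 without the 24 h pair) had an unadjusted p under 0.05 with a T3 effect in the same direction and none (1 without it) in the opposite one. Among the 41 lower ones 4 (9 without it) had one in the same and 1 (2 without it) in the opposite direction. Over all 18451 probe-sets, with both directions together, 671 had an unadjusted p under 0.05, and 1501 without the 24 h pair (limma). The later effect was 1.27 ± 0.15 (SE) for Dbp, 0.93 ± 0.15 for Klf9 and 0.60 ± 0.15 for Socs3 (limma, adjusted p = 0.912 in each). Whether the effect at 6 h differs from the later one was tested as a contrast in a separate limma fit on all 8 arrays. In it the lone 6 h pair is assumed to vary like the others. No probe-set passed, with 200 at an unadjusted p under 0.05, and on simulated data this contrast recovered 0 of 100 differences of log2 1 and 0 of 100 of log2 2, so that it could hardly call anything.

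Both results depended on the 24 h pair. Without it 34 probe-sets (0.184%) were called higher with T3 at 16 and 48 h by limma and 45 (0.244%) lower, from 1 residual degree of freedom per probe-set and a moderated variance. Of the 53 probe-sets higher at 6 h, 8 were among those higher, which are 4 of Klf9, both of Dbp, and those of Kcnj13 and Pcdh8, and none was among those lower. Of the 41 lower at 6 h, 1 was among those lower, that of Moxd1, a gene related to dopamine hydroxylase (42.9 and 87.6 at 6 h). The limma adjusted p without the 24 h pair was 9.24e-05 for Dbp, 0.000118 for Klf9, 0.00012 for Kcnj13, 0.0421 for Pcdh8 and 0.00896 for Moxd1. Over all alternatives of the fit it reached 0.999968 for each of these 5 genes. The contrast of 6 h with 16 and 48 h then called 20 probe-sets (0.108%) with a higher and 9 (0.0488%) with a lower ratio at 6 h, which rests on the lone 6 h pair and on 1 residual degree of freedom.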

How the data were processed

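Signal intensities were computed and scaled by the authors with GCOS and MAS5 (versions not given in the sources used here) and deposited as 1 linear intensity per probe-set and array. The mean without the highest and lowest 2% was 100 on every array. Of 45101 probe-sets 64 controls were left out, and of the other 45037, 34945 have 1 gene symbol in the platform's annotation, 932 several and 9160 none. Only the first are named. The log2 scale was used, with intensities under 1 raised to 1. With 1 array per condition, the number of arrays limits the precision, and values beyond 2-fold were counted without a test. MAS5 detection calls and change p-values were not used.

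The 3 later pairs and the contrast of 6 h with them were fitted with limma 3.58.1 in R 4.3.3, with time as a block and a variance trend, on probe-sets reaching 50 on at least 1 of 8 arrays, with Benjamini-Hochberg adjustment over all of them. The block follows the methods, which pair the cultures of a time point by cell batch. These pairs are separate cultures at different times, so the p-values measure spread that also includes time. Residual degrees of freedom were 2 per probe-set. The fit was tested on simulated data. Tables and plots were made in Python 3.11.15 with pandas 2.3.3.

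Members, motifs and the 32 gene lists were chosen with earlier results of these data known. Named genes are the 15 largest differences in each direction with 32 added to the signals, the study's genes, list members beyond 2-fold, up to 4 members of each list, and the 10 smallest p-values of each fit among genes beyond 2-fold; genes named for agreeing or disagreeing probe-sets were chosen after their values were seen. Alternatives were quantile normalization, median centring, 32 added, other folds and filters, other probe-sets, no variance trend, no block and leaving out each later pair.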

Additional observations from a re-analysis of the deposited data

How the results depend on the processing

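With 1 array per condition at 6 h no call could be tested, and the counts follow the limits chosen. Quantile normalization and median centring kept the counts within 1.5-fold of the 53 higher and 41 lower probe-sets. They were 15 and 8 with 32 added to every signal, 232 and 170 at 1.6-fold, 5 and 7 at 3-fold, 25 and 22 with a signal of 100 or more on at least 1 array, 19 and 16 with 50 or more on both, and 4613 and 3005 with no filter. Without probe-sets of type _x_at or _s_at, an alternative chosen after seeing the data, 35 were higher and 34 lower. Signs were compared over the member probe-sets of genes named for their size at 6 h or as the study's. The ratio changed sign in the other probe-set of Nr2f2 (-0.51) and of Xrn1 (0.13). With a main ratio under 2-fold, it also changed in another probe-set of Hyou1 (-0.15), Igsf3 (0.19) and Ccnd2 (0.89, 0.69 and 0.10). Probe-sets below the limit were not compared, and some of them, as for Sema3f and Rgs16, had the opposite sign. The median of choroid plexus markers was 0.40 with 32 added, 0.25 with 50 or more on both arrays and 0.45 with no filter, and that of meningeal and mural markers -0.28 with 50 or more on both arrays. Leaving out 1 later pair at a time, the later T3 effect was called in 0 to 34 probe-sets upwards and 0 to 45 downwards, and the difference between 6 h and later in 0 to 20 and 0 to 9. All of these calls came without the 24 h pair. Without the replicate block for time no probe-set was called in either fit (0 calls), as with it. The signs and unadjusted p-values without the 24 h pair were added after seeing the data.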
